A study of Homo sapiens with 12 samples.

Results

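The G2 phase and mitosis genes are a list of 45 human genes whose products start, drive, check and complete cell division. They were found by symbol in a table of 63036 genes and loci, and all 45 had TPM of 1 or more in at least 3 libraries, the level set for testing. TPM is the share of a library's transcripts that a gene holds, scaled to a fixed total and corrected for transcript length. The table covers 12 RNA-seq libraries of HCT116 and HCT15, established human colorectal carcinoma lines. The 4 groups, with 3 libraries each, are HCT116 control, HCT116 with RNF26 overexpression (OV), HCT15 control and HCT15 with RNF26 overexpression. RNF26 is a ubiquitin ligase that sits in the membrane of the endoplasmic reticulum. The series' title links RNF26 to the growth and spread of colorectal cancer cells, and the question for these genes is whether their mRNAs differ with RNF26 in either line. The control construct, the promoter driving RNF26, and whether the cells were clones or pools are not stated in any label, and nothing says that the 3 libraries of a group came from separate cultures. The p-values therefore measure only the spread between these libraries.

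Cells copy their DNA in S phase, grow in G2 and enter mitosis when CDK1 bound to a cyclin becomes active. Phosphatases of the CDC25 family switch this kinase on, and Polo-like and Aurora kinases then build the spindle. The spindle checkpoint holds back the anaphase promoting complex until every chromosome is attached, after which securin and the cyclins are destroyed and the cell divides. Most mRNAs of this programme rise in G2 and fall again after division, so their level in a growing culture follows how many cells are in those phases. In bulk RNA, fewer cells in G2 or mitosis and less of these mRNAs per cell cannot be told apart. Their promoters are textbook targets of the MuvB complex with B-MYB and FOXM1, which acts through a short sequence called the CHR (cell cycle genes homology region), often with CCAAT boxes nearby.

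The CHR was searched as TTTGAA or TTCGAA and the CCAAT box as CCAAT, both on either strand and with overlaps allowed, in RefSeq promoters (GRCh38.p14) from 250 bases before to 50 bases after a gene's start. Of the 45 genes 37 were matched, with 48 promoters. A CHR was found in 33 of these 48 promoters (68.8%), against 16.4% of all 35116 promoters of the table. A CCAAT box was found in 34 (70.8%, against 34.6%) and both elements in 27 (56.2%, against 6.38%). Counted by gene, 30 of 37 (81.1%) held a CHR, against 19.5% of all 27305 genes. The 30 bases around the CHR are shown for 5 genes that fell with RNF26 in HCT15, for CDK1, which rose, and for 4 that did not pass the test there. Each is written 5′ to 3′ on the gene's strand with the CHR in capitals. The distance from the first base of the CHR to the RefSeq start of that promoter was 13 to 65 bases. This start can lie inside the gene's annotated span, as for PLK1 and CDK1. For each gene shown, the 110 bases before this start overlapped at least 1 annotated exon.
PLK1 (chr16:23678848-23678877, + strand): cccagcgccgcgTTTGAAttcggggaggag
CDC20 (chr1:43358904-43358933, + strand): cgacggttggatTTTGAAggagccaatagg
CDCA8 (chr1:37692481-37692510, + strand): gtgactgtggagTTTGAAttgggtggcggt
PRC1 (chr15:90994538-90994567, - strand): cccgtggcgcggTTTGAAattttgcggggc
KIF4A (chrX:70290058-70290087, + strand): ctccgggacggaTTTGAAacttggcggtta
CDK1 (chr10:60778453-60778482, + strand): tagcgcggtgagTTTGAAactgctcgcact
BUB1B (chr15:40161034-40161063, + strand): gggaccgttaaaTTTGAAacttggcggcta
HMMR (chr5:163460598-163460627, + strand): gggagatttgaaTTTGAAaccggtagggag
KIF23 (chr15:69414282-69414311, + strand): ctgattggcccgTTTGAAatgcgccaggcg
CKS1B (chr1:154974639-154974668, + strand): gcgggcggcgtgTTTGAAagcgaggccaaa

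Longer stretches of 110 bases that end at or near the start and hold no annotated exon show how both elements lie together. In capitals are the CHR and the CCAAT boxes, read on either strand (TTCAAA and ATTGG are the reverse readings). MKI67 holds 2 CHRs, the second sharing bases with a reversed CCAAT box, while KIF11 and CKS2 each hold 1 CHR in the reverse reading. A match describes the letters in this window only. MKI67 and KIF11 fell in HCT15 and CKS2 did not pass the test.
MKI67 (chr10:128126424-128126533, - strand): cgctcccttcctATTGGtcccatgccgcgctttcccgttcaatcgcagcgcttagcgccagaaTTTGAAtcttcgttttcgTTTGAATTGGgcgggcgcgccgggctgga
KIF11 (chr10:92593020-92593129, + strand): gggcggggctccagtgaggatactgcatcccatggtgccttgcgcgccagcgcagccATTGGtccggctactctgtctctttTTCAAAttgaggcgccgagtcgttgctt
CKS2 (chr9:89311085-89311194, + strand): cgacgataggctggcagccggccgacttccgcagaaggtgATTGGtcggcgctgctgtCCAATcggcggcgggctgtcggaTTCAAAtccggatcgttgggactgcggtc

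RNF26 itself averaged 16.8 ± 1.44 TPM (SD, n = 3) in HCT116 control and 296 ± 39.4 in HCT116 RNF26 libraries, a 17.6-fold difference. In HCT15 it averaged 26.98 ± 0.762 and 54.2 ± 0.562 TPM, a 2.01-fold difference (exact permutation test in each line, two-sided p = 0.1, the smallest that 3 against 3 libraries can give). The HCT15 control library numbered 3 stood apart from the other controls of its line: mitochondrially encoded genes held 25.9% of its TPM against 17.7% and 16.4%, and ribosomal protein genes 17.6% against 21.8% and 24.3%. In the 3 HCT15 RNF26 libraries these shares were 18.4% to 19.2% and 26.3% to 27.5%. Of 14 epithelial markers 9 reached 1 TPM in at least 3 libraries. EPCAM, KRT8, KRT18 and KRT19 averaged 197.6 TPM or more in each control group, while the intestinal markers TFF3 and FABP1 were listed at 0 throughout and CDX1 and MUC2 averaged at most 0.0233 TPM. KRT20 averaged 1.27 TPM in HCT116 and 0.0233 in HCT15 controls, and VIL1 0.457 and 81.7. The summed level of 9 fibroblast markers was at most 2.94 TPM, of 6 endothelial markers at most 1.05 and of 10 leukocyte markers at most 7.78.

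In HCT15, 24 of the 45 G2 phase and mitosis genes fell with RNF26 and CDK1 alone rose. Over all 15584 genes tested 31.2% fell and 5.39% rose, 36.6% in all (limma on log2(TPM + 1), Benjamini-Hochberg adjusted p under 0.05), so the fall of many genes in this comparison was not confined to the list. The median log2 fold change of the 45 genes was -0.25, against -0.17 over all genes tested. In 25 of them all 3 RNF26 libraries were below all 3 controls and in 1 they were above, against 35.9% and 7.23% of all genes. Their summed TPM was 4438, 4099 and 4616 in the controls and 3640, 3751 and 3524 with RNF26, so the groups did not overlap. Without the HCT15 control library 3, 22 genes fell and 2 rose. In a fit of HCT15 alone 16 fell and 0 rose. With median-ratio scaling, in which libraries are brought to the same median ratio over well expressed genes (at least 5 TPM throughout), 13 were lower and 8 higher.

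**Figure D1:**
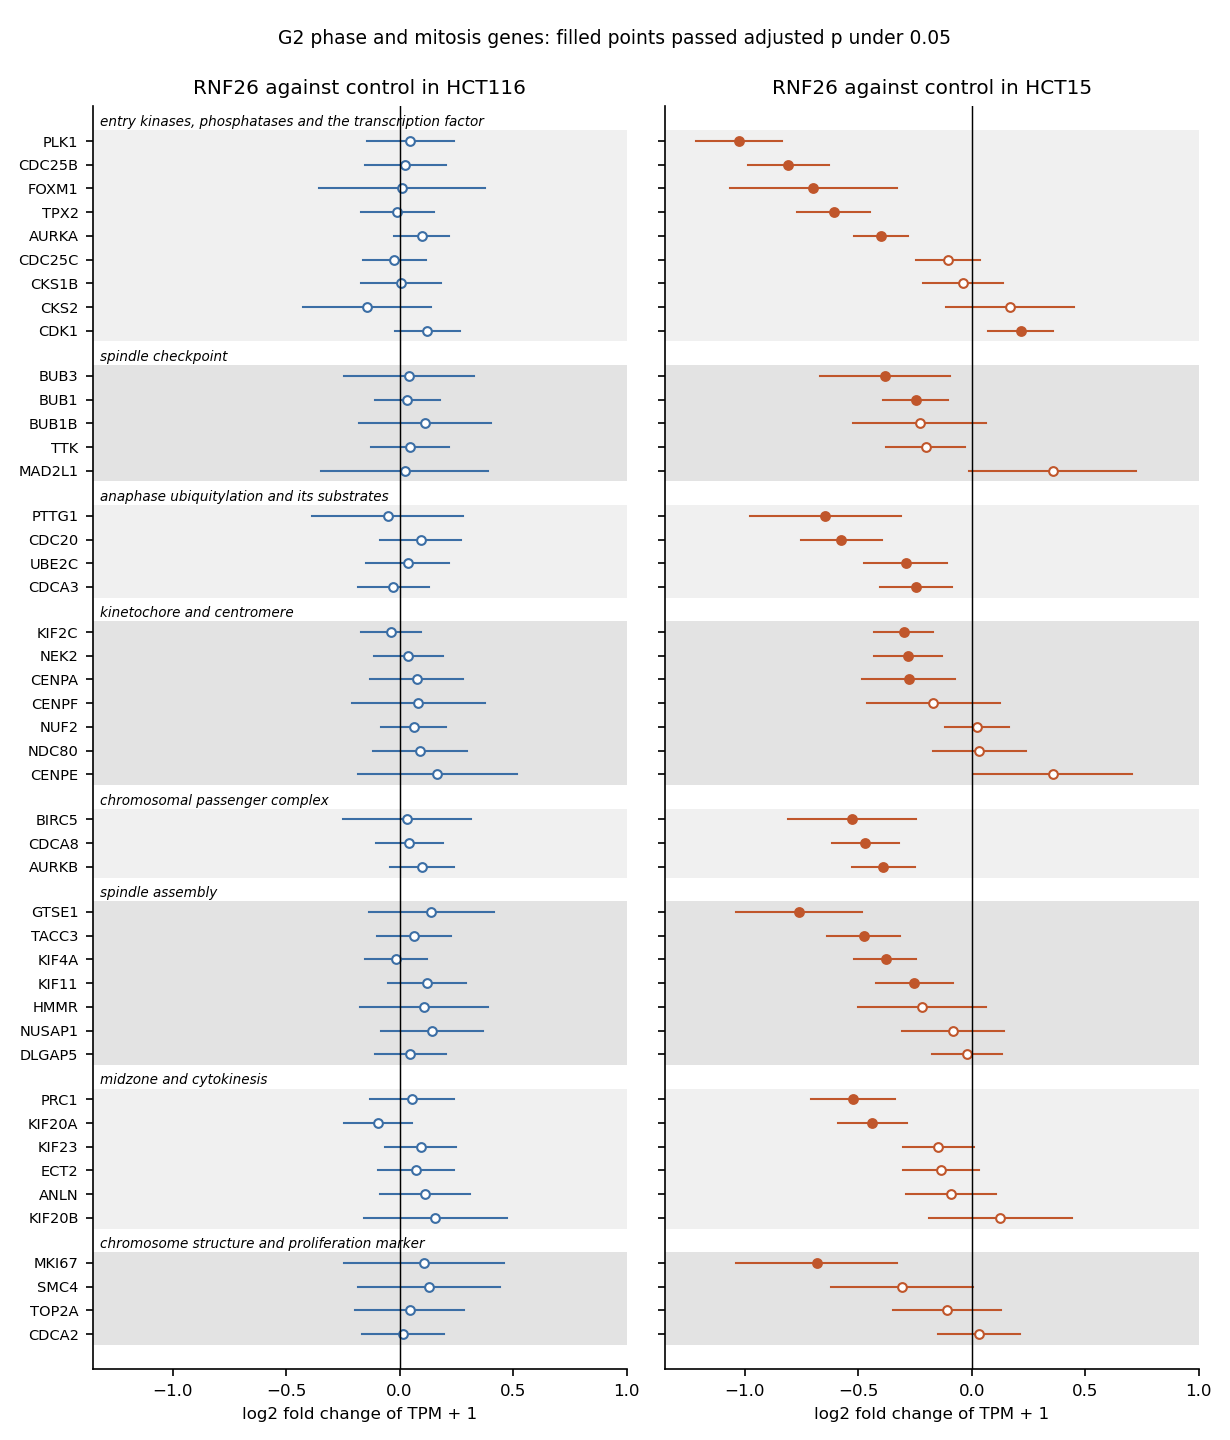
Log2 fold change of TPM + 1 with 95% confidence interval for the 45 genes by role, RNF26 against control in HCT116 (left) and HCT15 (right); filled points passed an adjusted p under 0.05. In HCT15, 24 filled points lie below 0 and CDK1 lies above it, and in HCT116 no point is filled.

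By role the share that fell was 25.0% of 4 chromosome structure genes, 33.3% of 6 midzone and cytokinesis genes, 40% of 5 checkpoint genes and 42.9% of 7 kinetochore genes, beside the 31.2% of all genes. It was 55.6% of 9 genes of mitotic entry, 57.1% of 7 spindle genes, and every gene of the 4 of anaphase ubiquitylation and the 3 of the passenger complex. Groups this small were given no test.

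Among the 9 genes of mitotic entry, 5 fell in HCT15. PLK1, the Polo-like kinase that acts from mitotic entry to cytokinesis (ENSG00000166851, chr16:23677656-23690367, + strand, GRCh38), was at 60.34, 49.06 and 54.47 TPM in the control libraries and at 25.86, 26.64 and 26.19 with RNF26. All RNF26 libraries lay far below the lowest control, and the difference was -1.03 ± 0.0864 on the log2(TPM + 1) scale (SE, adjusted p = 3.83e-05). CDC25B, the phosphatase that first activates CDK1 at the centrosome (ENSG00000101224, chr20:3786772-3806121, + strand), was at 36.02, 32.11 and 37.32 TPM in controls. With RNF26 it was at 18.95, 21.59 and 18.44, again with no overlap (-0.81 ± 0.0815, adjusted p = 6.42e-05). AURKA, the Aurora kinase of centrosomes and spindle poles, was at 73.71, 70.94 and 71.17 TPM against 55.53, 55.57 and 51.93 (-0.40 ± 0.0543, adjusted p = 0.000298). TPX2, the spindle protein that binds and activates AURKA, was at 138.1, 117.76 and 144.53 TPM against 88.32, 89.8 and 82.72 (-0.61 ± 0.0731, adjusted p = 0.000153). Both sets were well separated, with the TPX2 control library 2 the nearest to the RNF26 libraries.

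FOXM1, the transcription factor of G2 genes, averaged 25.1 ± 5.65 TPM in HCT15 controls and 14.9 ± 1.89 with RNF26 (-0.70, adjusted p = 0.00746). Its control library 3, at 31.52 TPM, lay above the other controls at 22.54 and 21.09. The call ended after a correction for transcript GC content and length, in which a spline over both was subtracted in each library (-0.31, adjusted p = 0.134). CDK1 (ENSG00000170312, chr10:60778331-60794852, + strand) was at 120.84, 117.17 and 123.92 TPM in controls and at 133.42, 152.54 and 135.4 with RNF26. All RNF26 libraries were higher, by 0.22 ± 0.0653 on the log2 scale (adjusted p = 0.0239). Among other settings, the call ended in a fit of HCT15 alone, after the GC correction (0.07), and when HCT15 control library 1 or 2 or RNF26 library 2 was left out. CKS1B and CKS2, the small subunits that bind CDK1, and CDC25C, a second phosphatase of CDK1, did not pass (log2 differences of -0.04, 0.17 and -0.10).

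**Figure D2:**
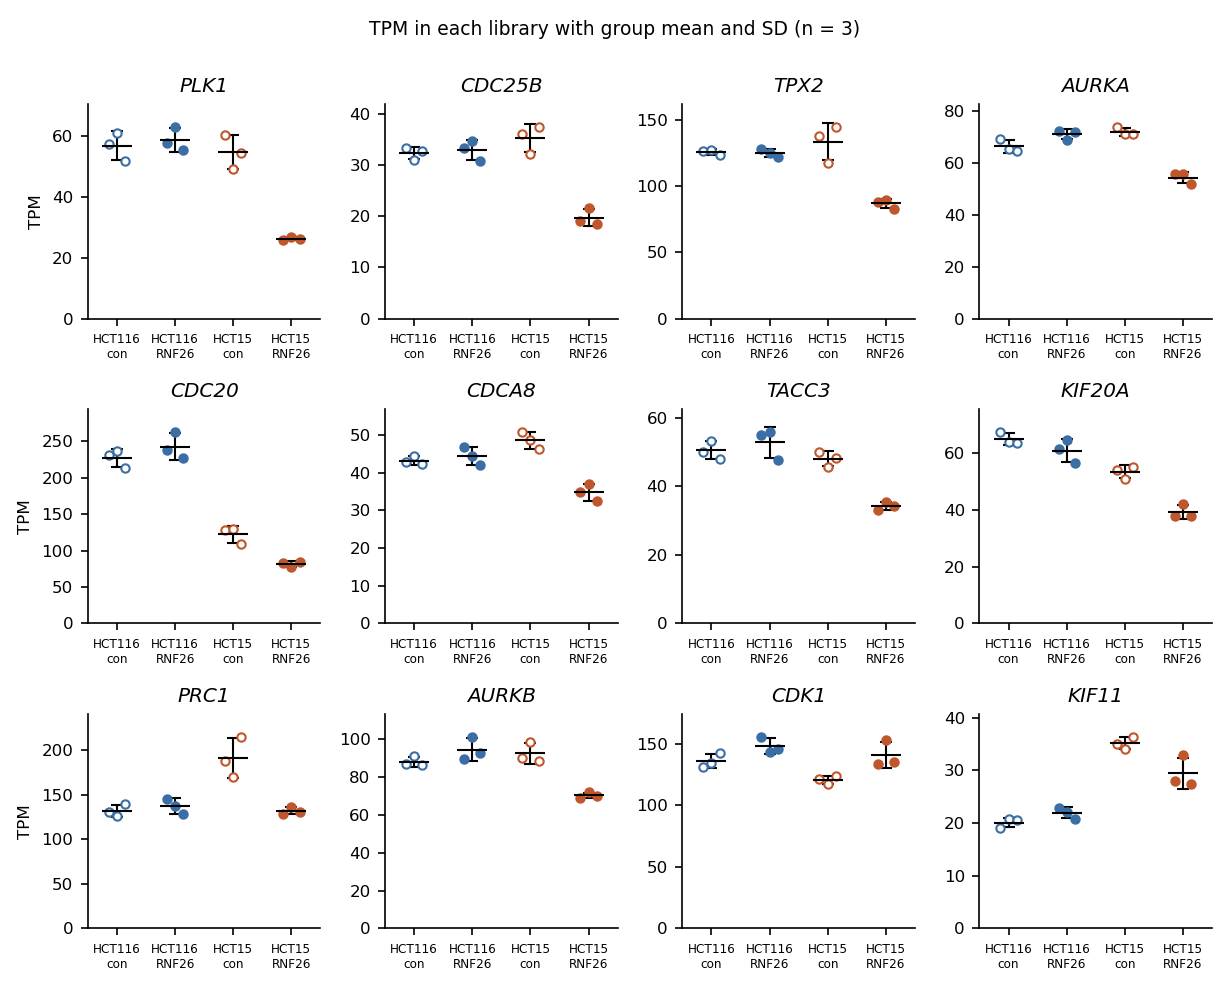
TPM in each of the 12 libraries for the 10 genes with the smallest p in HCT15, for CDK1 and for KIF11; open points are control and filled points RNF26 libraries, and bars show the mean and SD of 3 libraries. The HCT15 RNF26 libraries lie below the HCT15 controls for every gene shown except CDK1, for which they lie above.

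Of the 5 spindle checkpoint genes 2 fell. BUB1, the kinase that recruits other checkpoint proteins to kinetochores, averaged 59.6 ± 0.795 TPM in HCT15 controls and 50.2 ± 4.62 with RNF26 (-0.25, adjusted p = 0.0128). BUB3, its binding partner, averaged 297 ± 65.6 and 224 ± 19.7 TPM (-0.38, adjusted p = 0.0396), and its groups overlapped because control library 2 was at 227.23. Both calls ended with median-ratio scaling, among other settings. BUB1 kept its call in 18 of 24 alternatives. BUB3 kept it in only 7 of 24, the fewest among the genes that fell. The BUB3 call also ended with no filter, with the GC correction and when any HCT116 library was left out. MAD2L1, which as MAD2 holds CDC20 inactive, was at 53.18, 74.01 and 52.03 TPM in controls and 78.58, 94.58 and 58.61 with RNF26, with overlapping groups (0.36, adjusted p = 0.12). TTK, the kinase at the top of the checkpoint, and BUB1B did not pass (-0.20 and -0.23).

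All 4 genes of anaphase ubiquitylation fell. CDC20, the activator of the anaphase promoting complex, was at 128.18, 129.28 and 109.25 TPM in HCT15 controls and at 82.88, 77.63 and 84.23 with RNF26. The lowest control was above the highest RNF26 library (-0.57 ± 0.0817, adjusted p = 0.000387). PTTG1, the securin that keeps separase inactive, averaged 431 ± 115.6 TPM in controls and 268 ± 6.98 with RNF26 (-0.65, adjusted p = 0.00672). Its controls were widely spread, at 459.7, 303.97 and 529.77 TPM, and all were above the RNF26 libraries. UBE2C, the ubiquitin-conjugating enzyme of the same complex, averaged 251 ± 30.6 and 204 ± 11.1 TPM (-0.29, adjusted p = 0.0175). CDCA3 averaged 56.0 ± 3.44 and 47.1 ± 2.09 TPM (-0.25, adjusted p = 0.0198), and its difference changed sign, to 0.09, after the correction for GC content and length. The PTTG1 call was kept in 22 of 24 alternative settings and the UBE2C call in 18. Both ended with median-ratio scaling and in a fit of HCT15 alone.

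The 3 genes of the chromosomal passenger complex, which corrects faulty attachments and later directs cleavage, all fell. AURKB, its kinase, was at 90.14, 98.76 and 88.55 TPM in HCT15 controls and at 69.05, 71.96 and 69.94 with RNF26 (-0.39 ± 0.0632, adjusted p = 0.000809). CDCA8, the subunit borealin, was at 50.74, 48.54 and 46.36 TPM against 34.84, 37.06 and 32.56 (-0.47 ± 0.0672, adjusted p = 0.000399). Neither gene's groups overlapped. BIRC5, the subunit survivin, averaged 75.0 ± 15.0 and 51.2 ± 6.09 TPM (-0.53, adjusted p = 0.00799). Its lowest control, at 58.41, was only just above the highest RNF26 library at 58.07, and its call ended with median-ratio scaling, quantile normalization and the GC correction (-0.24), and in a fit of HCT15 alone.

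Of 7 kinetochore and centromere genes 3 fell. KIF2C, the kinesin that removes faulty microtubule attachments, averaged 91.4 ± 3.40 and 74.0 ± 2.71 TPM (-0.30, adjusted p = 0.00262). NEK2, a kinase that separates centrosomes, was at 80.8, 73.24 and 80.69 TPM in HCT15 controls and 62.9, 65.54 and 64.13 with RNF26 (-0.28 ± 0.0690, adjusted p = 0.00862). CENPA, the histone H3 variant that marks centromeres, was at 48.09, 50.22 and 42.49 TPM against 36.84, 42.11 and 36.63 (-0.28 ± 0.0930, adjusted p = 0.0368). All 3 pairs of groups were separated, CENPA by the smallest margin, and each call ended with median-ratio scaling. The KIF2C value went to -0.03 with the GC correction (adjusted p = 0.699). CENPA kept its call in 10 of 24 alternatives. Among others, it lost the call in a fit of HCT15 alone and without HCT15 control library 1 or 2 or RNF26 library 1 or 3. The microtubule-binding NDC80 and NUF2 differed by 0.03 and 0.02, with 95% confidence intervals of -0.17 to 0.24 and -0.12 to 0.17. The kinetochore motor CENPE averaged 11.1 ± 3.47 and 14.1 ± 0.604 TPM with overlapping groups (0.36, adjusted p = 0.103), and CENPF did not pass (-0.17).

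Of 7 spindle genes 4 fell. GTSE1, a microtubule-binding protein of G2 and mitosis, averaged 32.4 ± 5.61 TPM in HCT15 controls and 18.6 ± 1.28 with RNF26 (-0.76, adjusted p = 0.000916). TACC3, which links kinetochore microtubules, was at 49.91, 45.67 and 48.32 TPM against 32.93, 35.52 and 34.2 (-0.48 ± 0.0733, adjusted p = 0.000608). KIF4A, a chromosome-bound kinesin, averaged 26.3 ± 0.739 and 20.0 ± 1.03 TPM (-0.38, adjusted p = 0.000840). KIF11, the motor that pushes spindle poles apart, was at 35.07, 33.99 and 36.32 TPM against 27.89, 32.85 and 27.49 (-0.25 ± 0.0775, adjusted p = 0.0252). KIF11 kept its call in 15 of 24 alternatives, and TACC3 and KIF4A each in 22. Among other settings, the KIF11 call ended with median-ratio scaling and in a fit of HCT15 alone. It also ended without HCT15 control library 1 or 3 or RNF26 library 1 or 3. The TACC3 call ended with the GC correction (-0.07) and the KIF4A call with quantile normalization. HMMR, NUSAP1 and DLGAP5, all microtubule-binding spindle proteins, did not pass (-0.22, -0.08 and -0.02).

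Of 6 midzone and cytokinesis genes 2 fell. PRC1, which bundles the antiparallel microtubules of the midzone, was at 187.49, 169.93 and 214.4 TPM in HCT15 controls and at 128.55, 136.52 and 130.51 with RNF26 (-0.52 ± 0.0838, adjusted p = 0.000749). KIF20A, a midzone kinesin, was at 54.18, 51.03 and 55.33 TPM against 37.87, 42.12 and 37.89 (-0.44 ± 0.0685, adjusted p = 0.000662). Neither gene's groups overlapped. KIF23 and ECT2, which together position and switch on RhoA at the cleavage site, and ANLN, a scaffold of the contractile ring, differed by -0.15, -0.14 and -0.09 without passing, and KIF20B by 0.13. Among the 4 genes of chromosome structure, MKI67, the proliferation marker that coats mitotic chromosomes, averaged 95.4 ± 29.3 TPM in controls and 57.3 ± 0.756 with RNF26 (-0.68, adjusted p = 0.00691). Its controls ran from 69.55 to 127.27 TPM and its call ended with median-ratio scaling, in a fit of HCT15 alone and with the GC correction. TOP2A, the topoisomerase that untangles chromosomes, the condensin subunit SMC4 and the phosphatase subunit CDCA2 did not pass (-0.11, -0.31 and 0.03).

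Under all 24 alternative settings, 10 of the 24 genes stayed lower with RNF26 in HCT15: PLK1, CDC25B, AURKA, TPX2, CDC20, AURKB, CDCA8, GTSE1, PRC1 and KIF20A. Their fold changes were smaller once the general fall was scaled out or GC content corrected. Over 4 such scalings and corrections the PLK1 difference ranged from -0.92 to -0.68, CDC25B from -0.70 to -0.35, TPX2 from -0.49 to -0.39 and CDC20 from -0.46 to -0.29. GTSE1 ranged from -0.66 to -0.41, PRC1 from -0.40 to -0.26, CDCA8 from -0.36 to -0.21 and KIF20A from -0.32 to -0.20. AURKA ranged from -0.28 to -0.18 and AURKB from -0.27 to -0.17. The median of all genes moved from -0.17 to 0.00 with median-ratio scaling, -0.002 with quantile normalization, -0.07 when mitochondrial and ribosomal protein genes were left out and -0.008 with the GC correction. In the same order 13, 16, 17 and 17 of the 45 genes were lower, against 16.7%, 16.2%, 19.8% and 13.9% of all genes. The genes called higher numbered 8, 7, 2 and 1, against 14.5%, 14.6%, 8.23% and 10.9%. With median-ratio scaling the 8 were MAD2L1, CENPE, CDK1, CKS2, NDC80, CDCA2, NUF2 and DLGAP5. As shares of the 45 genes, 28.9% were then lower and 17.8% higher, the second close to the 14.5% of all genes, and 24 did not pass.

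**Figure D3:**
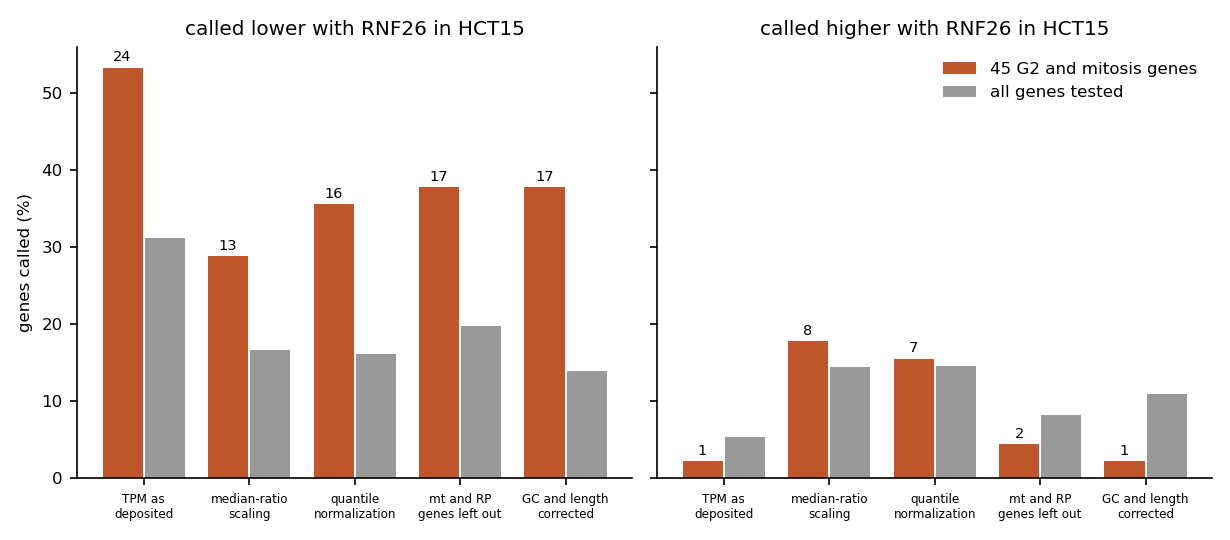
Percent of the 45 genes (orange, with the number called) and of all genes tested (grey) that were called lower (left) or higher (right) with RNF26 in HCT15, for TPM as deposited and under 4 scalings and corrections (mt, mitochondrially encoded; RP, ribosomal protein). As deposited 24 were lower and 1 higher; with median-ratio scaling 13 were lower and 8 higher.

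The HCT15 differences within the list varied with the base composition of the transcripts. The 45 genes' longest coding transcripts had 34.2% to 59.3% GC, with a median of 44.9% against 48.9% over the genes tested. Across the 45 genes the HCT15 log2 fold change and GC content had r = -0.77 (Spearman's rho = -0.76), and across all 14849 genes with both values r = -0.36 (rho = -0.41). All points come from the same 6 libraries, and genes are not independent replicates. Of 12 genes with 50% to 60% GC all 12 fell, among them PLK1, CDC25B and CDC20, and of 10 with 45% to 50% 8 fell. Of 12 with 40% to 45% 3 fell, and of 11 with 30% to 40% 1 fell (KIF11) and CDK1 rose. Over all genes tested 44.3%, 30.5%, 18.6% and 7.73% fell in these 4 ranges. After the correction for GC content and length, r was -0.50 over the 45 genes, and 17 genes were still lower. In HCT116 the same relation over the 45 genes had r = -0.30. What part GC content had in the differences was not tested beyond this correction.

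**Figure D4:**
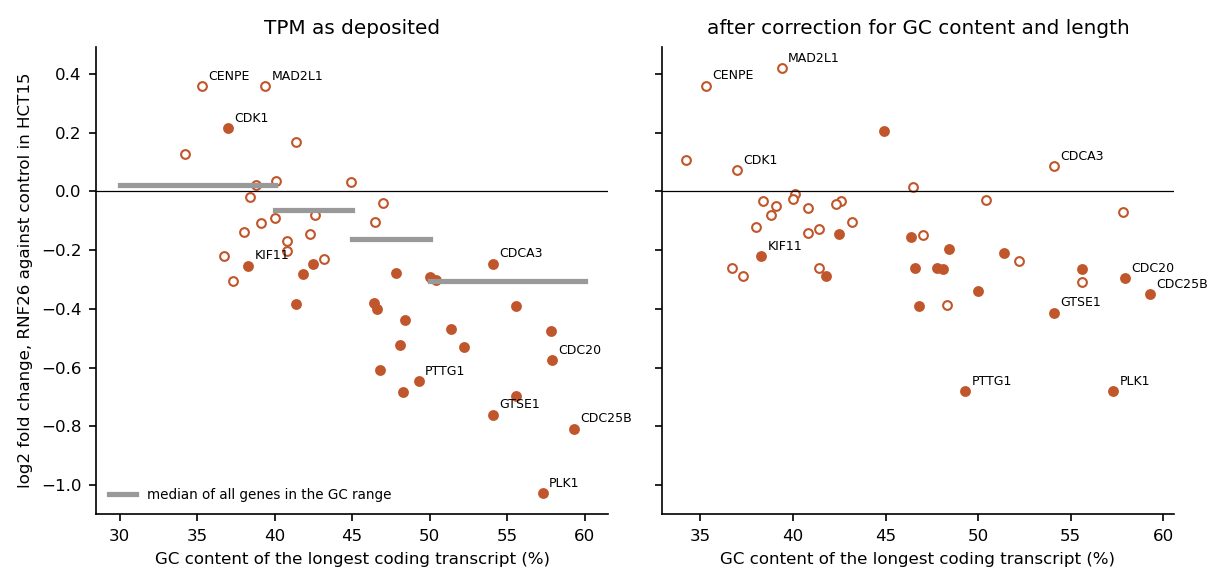
Log2 fold change with RNF26 in HCT15 against the GC content of each gene's longest coding transcript, for TPM as deposited (left, grey bars give the median of all genes in each GC range) and after correction for GC content and length (right); filled points passed an adjusted p under 0.05 in that fit. On the left the 12 genes above 50% GC all lie below 0. On the right PLK1 and PTTG1 both lie near -0.68, from -1.03 and -0.65 on the left.

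The HCT15 controls varied more in these genes than the other groups. The median SD of log2 TPM over the 45 genes was 0.14 in HCT15 controls, 0.10 in HCT15 RNF26, 0.06 in HCT116 control and 0.08 in HCT116 RNF26 libraries, and MKI67 in HCT15 controls had the widest, 0.43. Of the 45 genes 23 were highest in control library 3 among the controls, and 26 were lowest in control library 2. The log2 difference between control libraries 3 and 1 had r = 0.74 with log2 transcript length over the 45 genes and r = 0.17 over all genes, and that between libraries 3 and 2 had r = 0.59 and 0.20. Long transcripts such as MKI67, CENPF, CENPE and KIF20B were highest in library 3, at 127.27, 113.18, 14.91 and 26.49 TPM. In the HCT15 RNF26 libraries 39 of 45 genes were highest in library 2. The median deviation of this library within its group was 0.09 over the 45 genes and 0.06 over all genes, so its rise was not confined to the list.

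In HCT116 no G2 phase or mitosis gene passed the test, and none had an unadjusted p under 0.05. Over all genes 1 of 15584 (0.00642%) passed and 657 had an unadjusted p under 0.05. Of the 45 genes 37 had a fold change above 0, against 52.4% of all genes, with a median of 0.05 against 0.01. The smallest p belonged to CDK1, which was at 130.77, 134.41 and 142.13 TPM in controls and at 155.29, 142.78 and 145.68 with RNF26, just without overlap (0.12, 95% confidence interval -0.02 to 0.27, adjusted p = 1.0). AURKA was at 69.17, 65.4 and 64.6 TPM against 72.39, 68.79 and 71.97 (0.10, interval -0.02 to 0.22). KIF11 was at 19.03, 20.7 and 20.52 TPM against 22.92, 22.06 and 20.8 (0.12, interval -0.05 to 0.29), and AURKB at 86.88, 91.25 and 86.42 against 89.67, 101.18 and 92.89 (0.10, interval -0.04 to 0.24). Only KIF11 among these 3 kept its groups apart. In 3 genes all RNF26 libraries were above all controls and in 2 all were below, against 7.25% and 5.56% of all genes. PLK1 averaged 56.7 ± 4.74 and 58.5 ± 3.85 TPM, and CDC25B 32.3 ± 1.18 and 32.9 ± 2.03.

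The RNF26 effect differed between the lines, tested as HCT15 minus HCT116, in 17 of the 45 genes, and every one of these differences was negative. Over all genes 18.7% were lower and 1.80% higher in this test (20.5% in all), which uses the HCT15 libraries already described. The smallest p-values belonged to PLK1 (-1.07 ± 0.122, adjusted p = 0.00125), CDC25B (-0.83 ± 0.115, adjusted p = 0.00172), AURKA (-0.50 ± 0.0767, adjusted p = 0.00254), TPX2 (-0.60 ± 0.103, adjusted p = 0.00405) and CDC20 (-0.67 ± 0.115, adjusted p = 0.00405). PLK1 kept this call under every one of 23 alternatives. CDC25B, TPX2, CDC20 and CDCA8 kept it under all 4 scalings and corrections, and AURKA lost it with median-ratio scaling. All 3 passenger complex genes and 4 of 7 spindle genes were among the 17, and no spindle checkpoint gene was. For CDK1 the difference was 0.09 (interval -0.11 to 0.30), and it passed with median-ratio scaling (0.32). Of the 17 genes 7 kept their call with that scaling and 8 with the GC correction. The amount of RNF26 differs between the lines as well, so line and RNF26 level cannot be told apart in this comparison.

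Between the control cells of the lines 17 of the 45 genes were higher and 8 lower in HCT15 than in HCT116, against 43.6% and 26.0% of all genes, 69.5% in both directions. The median difference was 0.10, against 0.22 over all genes. It turned to -0.08 with median-ratio scaling and -0.07 with the GC correction, against 0.06 and 0.02 over all genes, and the genes called lower then numbered 17 and 20. TOP2A had the widest gap. It was at 69.09, 69.02 and 72.8 TPM in HCT116 controls and at 214.86, 222.62 and 297.35 in HCT15, 3.48 times higher (1.77 ± 0.109 on the log2 scale, adjusted p = 6.24e-08). CENPA was at 23.0, 18.72 and 21.19 against 48.09, 50.22 and 42.49 TPM (1.13 ± 0.0930), and NEK2 at 43.3, 38.17 and 40.3 against 80.8, 73.24 and 80.69 (0.93 ± 0.0690). CDC25C was at 13.99, 13.99 and 13.64 against 22.94, 23.61 and 21.09 TPM (0.66 ± 0.0637). Each of these 4 genes was higher in every HCT15 control than in any HCT116 control.

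Lower in HCT15 was DLGAP5, a spindle protein also called HURP, at 51.88, 55.83 and 56.39 TPM in HCT116 and at 24.74, 25.26 and 25.0 in HCT15 controls (-1.10 ± 0.0708, adjusted p = 9.37e-08). CDC20 was at 231.46, 236.93 and 212.74 TPM in HCT116 and 128.18, 129.28 and 109.25 in HCT15 (-0.89 ± 0.0817, adjusted p = 1.82e-06). Both pairs of groups were far apart. CKS2 and MAD2L1 were lower as well (-0.79 and -0.60). By role, 5 of 7 kinetochore and centromere genes were higher and none lower in HCT15, while of 5 checkpoint genes TTK was higher and MAD2L1 and BUB1 lower. PLK1, AURKB and TPX2 did not pass (-0.05, 0.07 and 0.08), although PLK1 was called lower with median-ratio scaling (-0.23) and the GC correction (-0.33). Under all alternatives 12 of the 17 stayed higher and 6 of the 8 lower, including the 6 genes given here in every library.

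**Figure D5:**
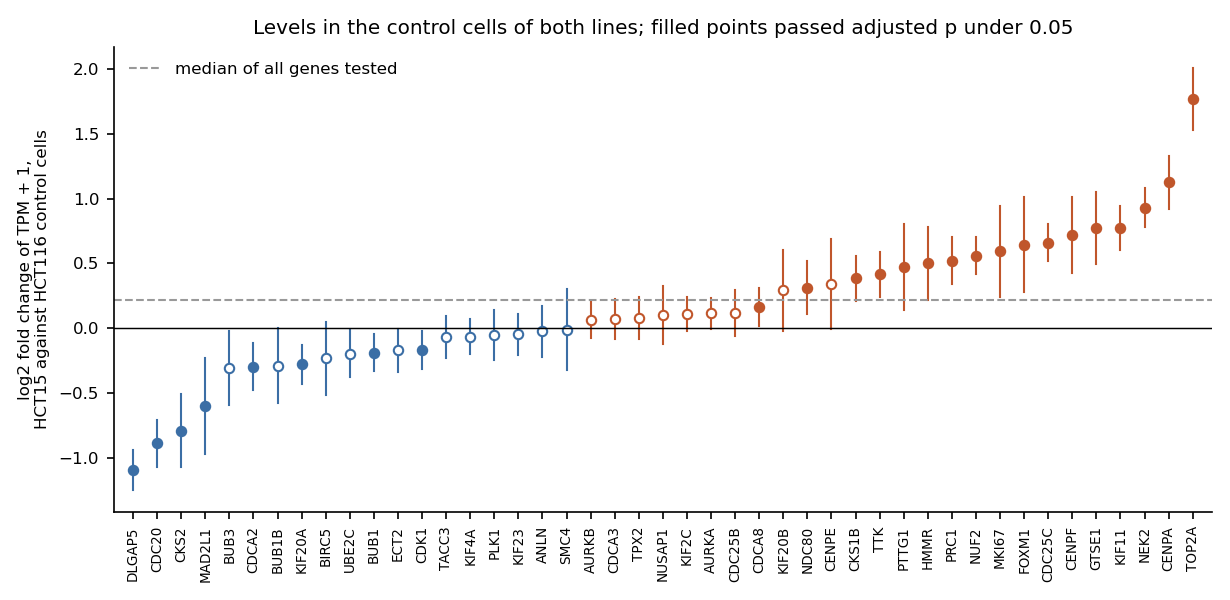
Log2 fold change of TPM + 1 with 95% confidence interval between HCT15 and HCT116 control cells for the 45 genes, ordered by value; filled points passed an adjusted p under 0.05 and the dashed line is the median of all genes tested. DLGAP5 (-1.10) and CDC20 (-0.89) stand at the left end and CENPA (1.13) and TOP2A (1.77) at the right.

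By level, CKS2 (409 TPM), BUB3 (362) and CKS1B (315) were the highest of the 45 genes in HCT116 controls, and PTTG1 (431), CKS1B (412) and BUB3 (297) in HCT15 controls. CKS2 averaged 239 TPM there. In HCT15 controls PTTG1 overlapped CKS1B within their SDs of 115.6 and 42.5 TPM, while the CKS1B libraries, at 364.79 TPM or more, all lay above those of BUB3, at 357.42 or less. CENPE was the lowest in both lines, at 8.28 TPM in HCT116 and 11.1 in HCT15.

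Of the 30 matched genes with a CHR in their promoter window 12 fell in HCT15 (40%) and CDK1 rose, with a median of -0.19, and of the 7 without it 6 fell (85.7%), with a median of -0.39. Of 29 with a CCAAT box 16 fell (55.2%), and of 8 without 2 fell (25.0%). Of the 8 genes with no matched promoter 6 fell (AURKA, BIRC5, BUB3, FOXM1, TPX2 and UBE2C). Over all genes tested 31.2% fell, and the differences between these small groups were not tested. The windows printed above show the CHR both in genes that fell, such as PLK1 and CDC20, and in CKS1B and BUB1B, which did not pass.

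Of 136 further mitotic genes tested in 8 lists, 62 fell (45.6%) and 7 rose (5.15%) in HCT15 and 67 did not pass, with a median of -0.23. Over all genes tested 31.2% fell and 5.39% rose, with a median of -0.17, and the difference of the lists from all genes was not tested. In HCT116 none passed, and 2 of the 136 had an unadjusted p under 0.05. Among 13 cyclins, CDK1 regulators and entry kinases 8 fell (61.5%). CCNA2 (cyclin A) averaged 84.7 ± 1.75 and 65.6 ± 2.84 TPM (-0.37, adjusted p = 0.000655), CCNB1 and CCNB2 (the B cyclins that activate CDK1) fell by 0.26 and by 0.32 on the log2 scale, and CCNF fell by 0.68. The CCNB1 and CCNB2 calls ended with median-ratio scaling, among other settings, and the CCNF value was -0.24 after the GC correction. WEE1, the kinase that inhibits CDK1, did not pass (-0.20). Of 12 genes of MuvB, DREAM and B-MYB 7 fell (58.3%), led by MYBL2 (B-MYB) from 50.4 ± 7.17 to 18.9 ± 0.176 TPM (-1.36, adjusted p = 3.83e-05). TFDP1 and E2F4, which act with the DREAM repressor, fell by 0.49 and by 0.48, and E2F4 stood at -0.14 after the GC correction. The CCNA2, MYBL2 and TFDP1 calls held under every alternative.

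In 3 lists the share that fell lay close to the 31.2% of all genes. Of 20 genes of the anaphase promoting complex and its regulators 6 fell (30%) and 4 rose (20%), while 5.39% of all genes rose. Of 32 further kinetochore genes 11 fell (34.4%) and 1 rose (3.1%). Of 12 genes used as qPCR normalisers 4 fell (33.3%) and 1 rose (8.3%). In the first list TRIP13, which disassembles checkpoint complexes, stood at -0.71. FZR1, the activator of late mitosis, stood at -0.81, and its call ended after the GC correction, which left -0.26 (adjusted p = 0.0627). SKA1, a microtubule-coupling subunit of the kinetochore, stood at -0.59. Of 17 genes of the passenger complex, cohesin and separase 8 fell (47.1%) and 2 rose (11.8%). INCENP, the scaffold of AURKB, fell from 14.1 ± 1.35 to 6.51 ± 0.245 TPM (-1.004, adjusted p = 0.000145), and ESPL1 (separase) and SMC1A (a cohesin subunit) stood at -0.86 and -0.90. Of 7 condensin genes 5 fell (71.4%), among them NCAPD2 at -0.61 and NCAPH2 at -0.81. Of 26 further spindle genes 13 fell (50%), including KIF18B at -0.94 and KIF22 at -0.80, and of 9 cytokinesis genes 4 fell (44.4%). After the GC correction INCENP, ESPL1, NCAPD2, NCAPH2, KIF18B and KIF22 were still lower, with values between -0.53 and -0.24. RACGAP1, CIT, KIF13A and VPS4A, the 4 cytokinesis genes that fell, lost their calls with this correction (-0.15, -0.16, -0.15 and 0.01). The condensin gene NCAPH (-0.25), the kinetochore gene SPC24 (-0.24) and the CDK1 regulator PKMYT1 (-0.13) lost theirs as well. Among 56 S phase genes, 32 fell and 3 rose with a median of -0.32. The share of S phase genes that fell, 57.1%, stood beside 53.3% of the G2 phase and mitosis genes, and the difference was not tested.

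The annotation places exons of other genes over those of 17 of the 45 genes, among them PLK1 (ERN2 on the opposite strand), KIF20A (BRD8 and CDC23), FOXM1 (ITFG2), BUB1B (the readthrough BUB1B-PAK6) and CENPA (SLC35F6). BUB1B-PAK6, SLC35F6, AC068831.7 and AC087721.2 lie on the same strand as BUB1B, CENPA, PRC1 and NUSAP1, in that order. There, assignment by strand would not separate the reads. For overlaps on the opposite strand, no label states whether reads were assigned by strand. The levels of these genes are therefore less certain.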

How the data were processed

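The deposited table gives TPM for 12 libraries, 3 in each of 4 groups taken from the sample titles. Per the labels' protocols, poly(A) RNA was made into stranded libraries and read in pairs. The tools named per the submitters' processing notes are RSEM, StringTie, HISAT2 and fastp, on GRCh38, with no version, role or annotation given. The authors' TPM holds no depth, so sequencing depth is unknown and counting intervals cannot be had. No columns were left unmapped, and no libraries were copies (at least 24770 genes differed in each pair).

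Tests used R 4.3.3 and limma 3.58.1 on log2(TPM + 1), a scale that understates changes of low genes. Entering 1 fit were 15584 genes that reached 1 TPM in at least 3 libraries, with a mean per group (8 residual degrees of freedom, prior 3.09, trend). Tests were two-sided with Benjamini-Hochberg adjustment over all genes, called under 0.05. The fit was run on simulated data in which each gene had the same spread in every group and noise was independent. This checked the code and not how the fit behaves under the unequal spreads of these libraries. GC content and length, from GENCODE on GRCh38, are those of the longest coding transcript.

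The 45 genes, the lists and the settings were chosen with earlier results of these data known. Named genes were those with the smallest p in each comparison and list, up to a set number, with CCNA2, CCNB1, CCNB2, MYBL2, WEE1, E2F4 and RNF26 added; every one of the 45 could be named. Alternatives were other pseudocounts (0.1, 5), filters (none, 5 TPM), 4 scalings and corrections, a separate fit of each line, no trend, a replicate block, and each library left out.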

Additional observations from a re-analysis of the deposited data

Results flagged for a closer look

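For 17 genes the RNF26 effect differed between HCT15 and HCT116 in a test of the difference itself (limma interaction, adjusted p under 0.05), and each difference, HCT15 minus HCT116, was negative on the log2(TPM + 1) scale. Of the entry genes PLK1 differed by -1.07, CDC25B by -0.83, AURKA by -0.50 and TPX2 by -0.60. CDC20, the activator of the anaphase promoting complex, differed by -0.67. The passenger complex genes AURKB, CDCA8 and BIRC5 differed by -0.49, -0.51 and -0.56. Of the spindle genes TACC3 differed by -0.54, GTSE1 by -0.90, KIF4A by -0.36 and KIF11 by -0.37. The midzone genes PRC1 and KIF20A differed by -0.58 and -0.34, the kinetochore genes NEK2 and KIF2C by -0.32 and -0.26, and the proliferation marker MKI67 by -0.79. Adjusted p-values ran from 0.00125 for PLK1 to 0.0496 for BIRC5. Over all genes 18.7% were lower in this test.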

How the results depend on the processing

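No G2 phase or mitosis gene passed in HCT116 under any alternative. In HCT15, 24 were lower. This number was 13 with median-ratio scaling, 15 with the replicate block and GC correction together, and 16 in a separate fit of each line. It was 21 with the replicate block, and 19 to 27 without each library in turn. The 1 gene called higher became 8, 7 and 2 with median-ratio scaling, quantile normalization and without mitochondrial and ribosomal protein genes, 0 in a separate fit, and 0 to 2 without each library. The CDK1 call also ended with the replicate block, with and without the GC correction, where 1 other gene (MAD2L1, 0.36 and 0.42) was called higher. It was 0 without HCT15 control library 1 or RNF26 library 2, and 2 without control library 2 or 3 or RNF26 library 3. CDCA3 turned from -0.25 to 0.0861 with the GC correction, with and without the block.

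The 17 differences between lines became 11 with no filter, 8 with median-ratio scaling, 9 with quantile normalization, 10 without mitochondrial and ribosomal protein genes, 10 with the GC correction, 11 with the replicate block, 2 with block and GC correction, and 11 to 24 without each library. With median-ratio scaling 7 of the 17 were kept and CDK1 was called in the opposite direction (0.32), and with the GC correction 8 were kept and CENPA and UBE2C added. The count was 11 without HCT116 control 2 or 3, HCT116 RNF26 2, HCT15 control 1, or HCT15 RNF26 1 or 3. KIF2C turned to 0.00172 with the GC correction, with and without the block.

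Between control lines the 8 lower genes became 17 with median-ratio scaling, 20 with the GC correction and 18 with block and GC correction, and 6 to 11 without each library; the 17 higher ranged from 15 to 20. CDCA8 turned from 0.17 to -0.0108 with median-ratio scaling and to -0.0295 with the GC correction, with and without the block. The replicate numbers did not pair the libraries: deviations of same-numbered libraries correlated at -0.0313, -0.0424 and -0.0254 in HCT116 and 0.00895, 0.0135 and 0.146 in HCT15, and not every library correlated best with its own number. The causes of these changes were not tested. TPM gives no depth, so whether small differences among low genes are limited by it is unknown.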
